A study of Mus musculus with 6 samples.

Results

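The genes described here are 10 members of the Notch pathway: the receptors Notch1, Notch2, Notch3 and Notch4, the ligands Jag1, Jag2 and Dll1, and the transcriptional targets Hes1, Hey1 and Hey2. They were taken by name from an Affymetrix 3′ expression array. All 10 were measured, by 18 probe sets that the platform annotation ties to a single gene symbol, out of 18193 genes in all. Each gene was read by its brightest probe set, judged by the mean of all 6 arrays, and the other 8 probe sets served as a check. The samples were 3 flasks of AC29, a malignant mesothelioma line of CBA origin at passage 60, and 3 flasks of AB1, a malignant mesothelioma line of BALB/c origin at passage 40. The labels give female mice of 6 to 8 weeks for both lines. Neither line was treated or engineered, both grew in RPMI medium with foetal calf serum, and each flask at 80% confluency gave 1 array. Each group is 1 line, so that line, strain, passage and any batch cannot be told apart, and p-values measure the spread between flasks only.

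Notch receptors are transmembrane proteins that a ligand on a neighbouring cell, Jagged or Delta-like, activates. Sugars placed on the receptor by Pofut1 and the Fringe enzymes tune which ligand binds, the protease Adam10 and then gamma-secretase cut the bound receptor, and the freed intracellular part enters the nucleus. There it joins the DNA binding protein Rbpj and a Mastermind coactivator and turns on repressors of the Hes and Hey families. In mesenchyme and vessel walls the pathway is known for its part in mural cell and smooth muscle differentiation.

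The 250 bases before the transcription start are shown for 5 genes: Notch1 and Jag1, the members above background that separated the lines without overlap, Hey2 and Hes5, classical Rbpj targets, and Lfng, a Fringe enzyme that was higher in AC29. Sequences are from RefSeq, build GRCm38.p6, 5′ to 3′ in the direction of the gene. Capitals mark TGGGAA or its reverse complement TTCCCA, the core letters that Rbpj binds. Ikaros proteins bind the same core, so a match does not name the factor. The windows lie at chr2:26503823-26504072, minus strand (Notch1), chr2:137116521-137116770, minus strand (Jag1), chr10:30842784-30843033, minus strand (Hey2), chr4:154960673-154960922, plus strand (Hes5) and chr5:140607091-140607340, plus strand (Lfng).
Notch1: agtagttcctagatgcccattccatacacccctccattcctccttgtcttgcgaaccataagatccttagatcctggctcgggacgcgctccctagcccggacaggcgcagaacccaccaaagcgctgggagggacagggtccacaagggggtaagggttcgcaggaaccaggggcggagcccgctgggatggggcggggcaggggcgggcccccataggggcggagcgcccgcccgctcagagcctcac
Jag1: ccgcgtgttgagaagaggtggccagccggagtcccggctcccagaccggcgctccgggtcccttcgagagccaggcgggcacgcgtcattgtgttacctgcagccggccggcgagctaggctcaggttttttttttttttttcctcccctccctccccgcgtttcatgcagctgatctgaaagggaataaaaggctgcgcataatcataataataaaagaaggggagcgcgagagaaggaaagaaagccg
Hey2: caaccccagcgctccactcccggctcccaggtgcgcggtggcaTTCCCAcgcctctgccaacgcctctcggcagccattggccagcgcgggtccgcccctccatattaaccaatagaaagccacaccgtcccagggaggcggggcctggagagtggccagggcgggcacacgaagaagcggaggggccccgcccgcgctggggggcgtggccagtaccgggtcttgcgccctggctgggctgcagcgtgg
Hes5: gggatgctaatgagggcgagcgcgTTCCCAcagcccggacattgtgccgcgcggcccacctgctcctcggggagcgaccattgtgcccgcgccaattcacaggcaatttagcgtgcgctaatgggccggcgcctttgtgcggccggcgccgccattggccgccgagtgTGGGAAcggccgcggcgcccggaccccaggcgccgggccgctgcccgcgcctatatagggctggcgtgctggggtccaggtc
Lfng: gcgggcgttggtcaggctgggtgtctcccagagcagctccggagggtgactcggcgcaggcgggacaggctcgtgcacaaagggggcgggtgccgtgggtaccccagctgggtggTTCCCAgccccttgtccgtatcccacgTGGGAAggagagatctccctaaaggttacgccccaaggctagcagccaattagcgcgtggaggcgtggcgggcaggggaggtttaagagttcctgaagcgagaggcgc
The Notch1 and Jag1 windows hold no match, the Hey2 window holds 1, and the Hes5 and Lfng windows hold 2 each. Counted with -1 as the base just before the start, the matches begin at -207 in Hey2, at -226 and -82 in Hes5, and at -135 and -108 in Lfng. The longer form GTGGGAA was present in Hey2 once, in Hes5 at both matches and in Lfng once. Of all 32851 promoters in the table, 21.6% hold the 6-letter core within this length and 5.42% hold the longer form. Among the members the table has 9 promoters of 8 genes, and 1 of the 9, that of Hey2, holds the core and the longer form. Hes1 and Hey1 have no entry in it, so their promoters were not read. Among the wider pathway genes listed further on, 19 of 73 promoters hold the core and 6 of 73 hold the longer form (8.22%). These are letter matches only.

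All 6 arrays were of similar scale, with medians of 5.80 to 5.81 in AC29 and 5.76 to 5.80 in AB1 on the log2 scale. Pearson's r across genes was 0.995 to 0.997 within AC29, 0.997 to 0.998 within AB1 and 0.937 to 0.938 between the lines. AC29 replicate 14 stood apart on the second principal component, which held 2.86% of the variance, and a probe set inside 18S rRNA gave 8.53 there, against 7.43 to 7.91 on the other arrays. Without it, no member gained or lost its call and Notch1 differed by -1.47; the values that Jag2, Dll1, Hes1, Hey1, Pofut1 and Furin take without it are given with each gene. A background floor of 6.07 was the 95th percentile of 86 probe sets for olfactory, vomeronasal and taste receptors, genes not expected in these cells; their 99th percentile was 7.23. The call rule asked for a limma adjusted p under 0.05 and at least a 2-fold difference, and 10.9% of all genes met it, 5.12% as higher and 5.82% as lower in AC29. The number of arrays limits the precision.

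Of the 10 Notch genes, 1 was called, the receptor Notch1, which was lower in AC29. The remaining 9 differed by at most 0.58 on the log2 scale. The share called, 1 of 10, is close to the 10.9% of all genes; for calls toward lower values in AC29 that share was 5.82%. The median difference over the 10 was -0.16, against -0.0047 over all 18193 genes, and the median size of a difference was 0.18, against 0.20. Signal above the floor on at least 1 array was found for 6 members, Notch1, Notch2, Jag1, Jag2, Hes1 and, barely, Dll1, while Notch3, Notch4, Hey1 and Hey2 stayed under it throughout; over all genes 64.0% exceeded the floor on at least 1 array. For 4 members, Notch1, Jag1, Hey1 and Hey2, every AC29 array lay below every AB1 array, where 50.1% of all genes showed no overlap. For Hey1 and Hey2, under the floor, this direction is not usable.

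**Figure D1:**
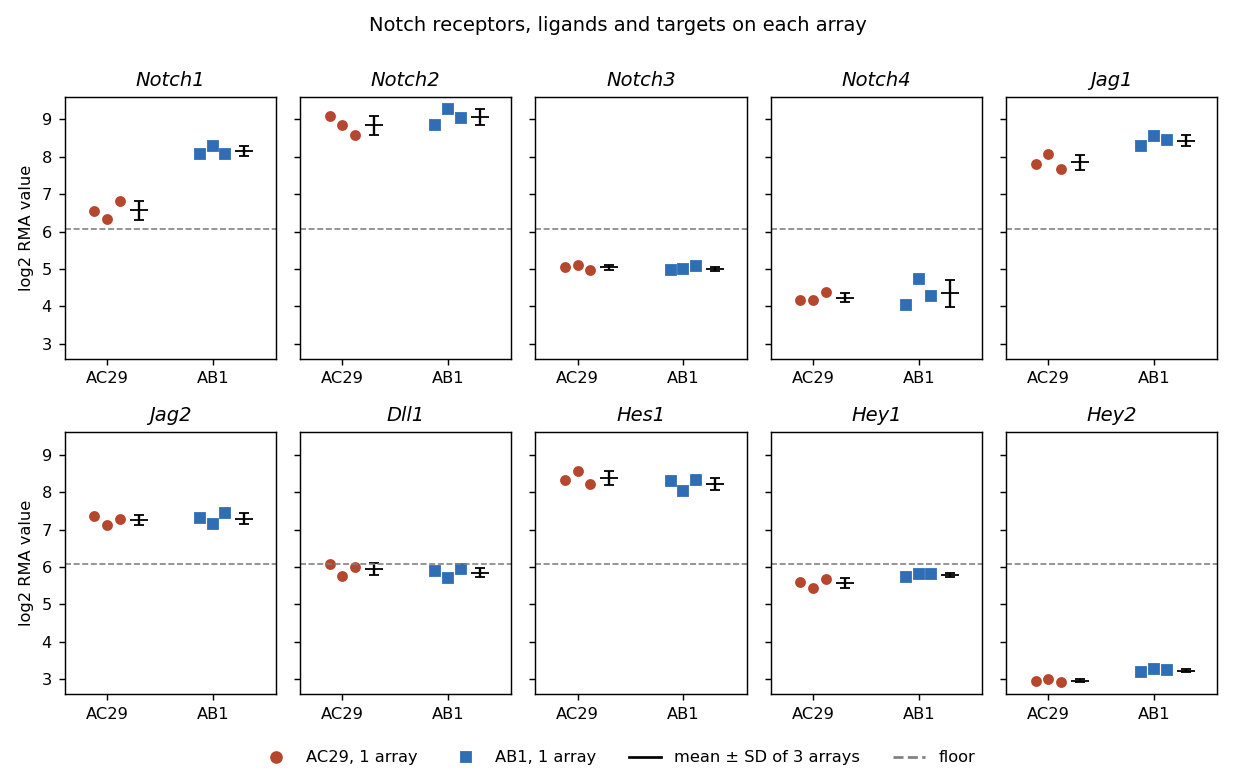
Log2 RMA values of the 10 Notch genes on each array, AC29 (circles) left of AB1 (squares), with the mean ± SD of 3 arrays beside them and the floor of 6.07 dashed. Notch1 shows the widest gap, Notch2, Jag2 and Hes1 overlap between the lines above the floor, and Notch3, Notch4, Hey1 and Hey2 lie under it.

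Among the receptors, Notch1 read 6.54, 6.34 and 6.82 on the AC29 arrays and 8.07, 8.30 and 8.08 on the AB1 arrays. Every AC29 array lay below every AB1 array, and the AC29 values sat close above the floor and under the stricter level of 7.23. The means were 6.57 ± 0.24 in AC29 and 8.15 ± 0.13 in AB1 (SD, n = 3 each), a log2 difference of -1.58 (standard error 0.13, limma adjusted p = 1.10e-05) that makes Notch1 2.99-fold lower in AC29. With the higher percentile as the floor, the fold is a bound of at least 1.89. The second Notch1 probe set was also lower in AC29, at 6.71 against 7.20 in AB1, but by only -0.49 (adjusted p = 0.0151 over all probe sets), short of 2-fold. On the mean of both probe sets the difference was -1.03 and still passed the rule. How large the difference is therefore depends on the probe set, while its direction does not. In bulk cultures fewer expressing cells and less RNA per cell cannot be told apart.

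Notch2, the other receptor with signal in both lines, read 9.08, 8.85 and 8.58 in AC29 and 8.85, 9.29 and 9.04 in AB1. The arrays of the lines overlapped. The difference was -0.22 with a 95% interval of -0.56 to 0.12 (adjusted p = 0.301), so that a 2-fold change in either direction lies outside the interval. A second Notch2 probe set was under the floor in both lines. Notch3, the receptor of mural cells, averaged 5.04 ± 0.07 in AC29 and 5.01 ± 0.05 in AB1 (SD, n = 3 each), under the floor on every array by both of its probe sets. Notch4, which is best known from endothelium, averaged 4.23 ± 0.13 in AC29 and 4.34 ± 0.37 in AB1, also under the floor, as were its other 2 probe sets. For genes under the floor no fold is given, and their differences carry no usable direction.

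**Figure D2:**
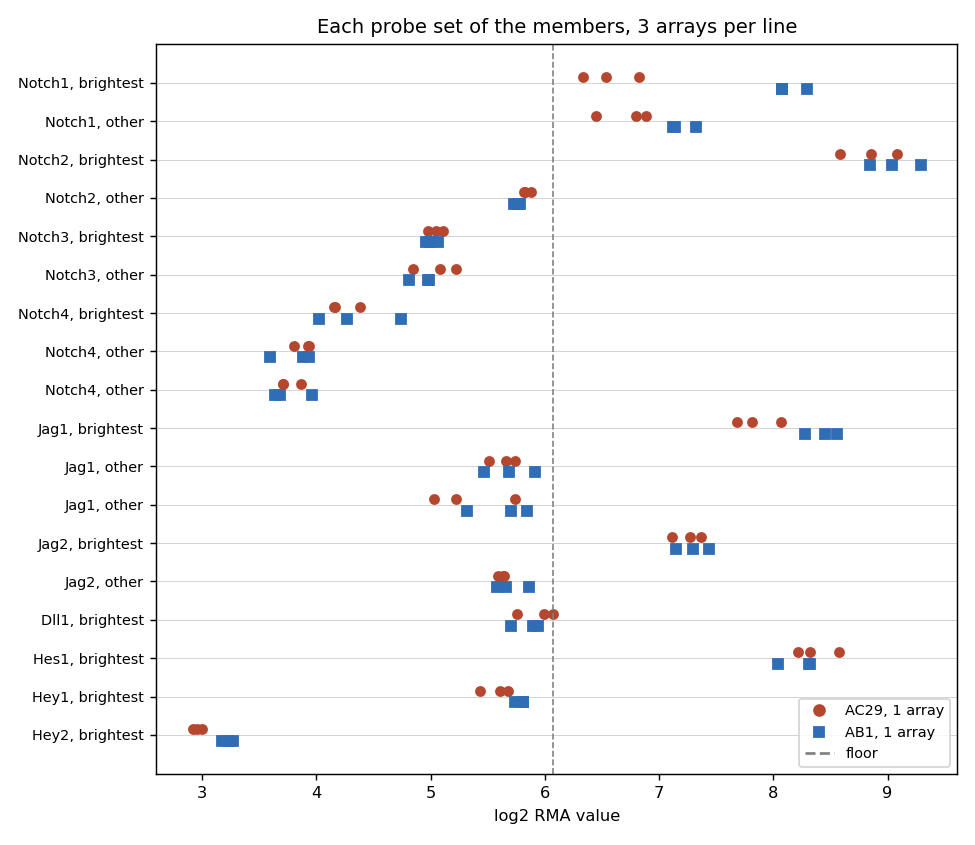
Log2 RMA values of all 18 probe sets of the Notch genes, 3 AC29 arrays (circles) above 3 AB1 arrays (squares) in each row, with the floor of 6.07 dashed. Both Notch1 probe sets separate the lines, by -1.58 and -0.49, and the further probe sets of Notch2, Notch3, Notch4, Jag1 and Jag2 lie under the floor.

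Among the ligands, Jag1 read 7.81, 8.07 and 7.68 in AC29 and 8.28, 8.56 and 8.45 in AB1. The AC29 arrays all lay below the AB1 arrays, with no overlap, yet the difference of -0.58 (standard error 0.12, 95% interval -0.85 to -0.30) was 1.49-fold and missed the 2-fold minimum. Its adjusted p of 0.00393 in limma passed on its own, as it did for 39.1% of all genes. The other 2 Jag1 probe sets were under the floor in both lines. Jag2 read 7.37, 7.11 and 7.27 in AC29 and 7.30, 7.15 and 7.44 in AB1, overlapping values around the stricter background level of 7.23, with a difference of -0.04 (95% interval -0.29 to 0.20, adjusted p = 0.808), which was 0.03 without AC29 replicate 14. Dll1, a Delta-like ligand, exceeded the floor on 1 AC29 array alone (6.08, with 5.76 and 5.99 on the others), and read 5.90, 5.70 and 5.94 in AB1. The Dll1 values of the lines overlapped and give no fold; their difference was 0.10, or 0.19 without AC29 replicate 14.

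Among the targets, Hes1, the most widely used readout of Notch activity, read 8.32, 8.58 and 8.21 in AC29 and 8.31, 8.04 and 8.32 in AB1. The values overlapped, and the difference was 0.15 with a 95% interval of -0.13 to 0.42 (adjusted p = 0.410); without AC29 replicate 14 it was 0.04. Hes1 also responds to other pathways, so its level is not a measure of Notch alone. Hey1, a Hes-related repressor, averaged 5.57 ± 0.13 in AC29 and 5.78 ± 0.04 in AB1 (SD, n = 3 each; adjusted p = 0.102), a difference of -0.21, or -0.14 without AC29 replicate 14. Hey2, a repressor of heart and vessel development whose promoter holds 1 core match in the window above, read 2.96, 3.00 and 2.92 in AC29 and 3.18, 3.27 and 3.23 in AB1. The Hey2 difference of -0.27 had an adjusted p of 0.0244, but lies far under the floor in both lines, where dim probe sets are compressed. Counting a limma adjusted p under 0.05 with no minimum difference, 3 of the 10 genes passed, against 39.1% of all genes. They were Notch1, Jag1 and Hey2. Notch1 and Jag1 were lower in AC29, a direction in which 20.0% of all genes passed. The Hey2 difference, under the floor, carries no usable direction.

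The profile over the 6 arrays most like that of Notch1, after subtracting each gene's own mean, was that of Emilin2, an extracellular matrix glycoprotein, at a Euclidean distance of 0.14 on the log2 scale. Cdkn1a, which encodes the cell cycle inhibitor p21, followed at 0.17, and Bgn, the matrix proteoglycan biglycan, at 0.18. The search ran over 11646 genes above the floor on at least 1 array. With 3 flasks per line, likeness mostly reflects a gap of similar size between the lines.

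The wider pathway was described through 71 further genes in 8 lists ordered by role, of which 65 were measured. Of these 65, 14 were called, 6 higher and 8 lower in AC29, which is 21.5% against 10.9% of all genes (5.12% higher and 5.82% lower). Their median difference was -0.12, against -0.0047 over all genes. The lists were put together with earlier results of these data known, so the share describes them and supports nothing more. The counts of the single lists, given next, stand beside the same shares of all genes, and lists of 5 to 12 genes say little on their own. Among the 14 called genes, 10 had another probe set above the floor; all 15 such probe sets moved in the same direction and 12 of them passed the rule. Among the 51 genes not called, 4 had another probe set past the rule, Dtx4, Tle1, Nrarp and Ccnd1, all lower in AC29. Called genes were found among the enzymes that modify and cut the receptor, the ubiquitin ligases of the pathway, the nuclear machinery and the described targets.

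**Figure D3:**
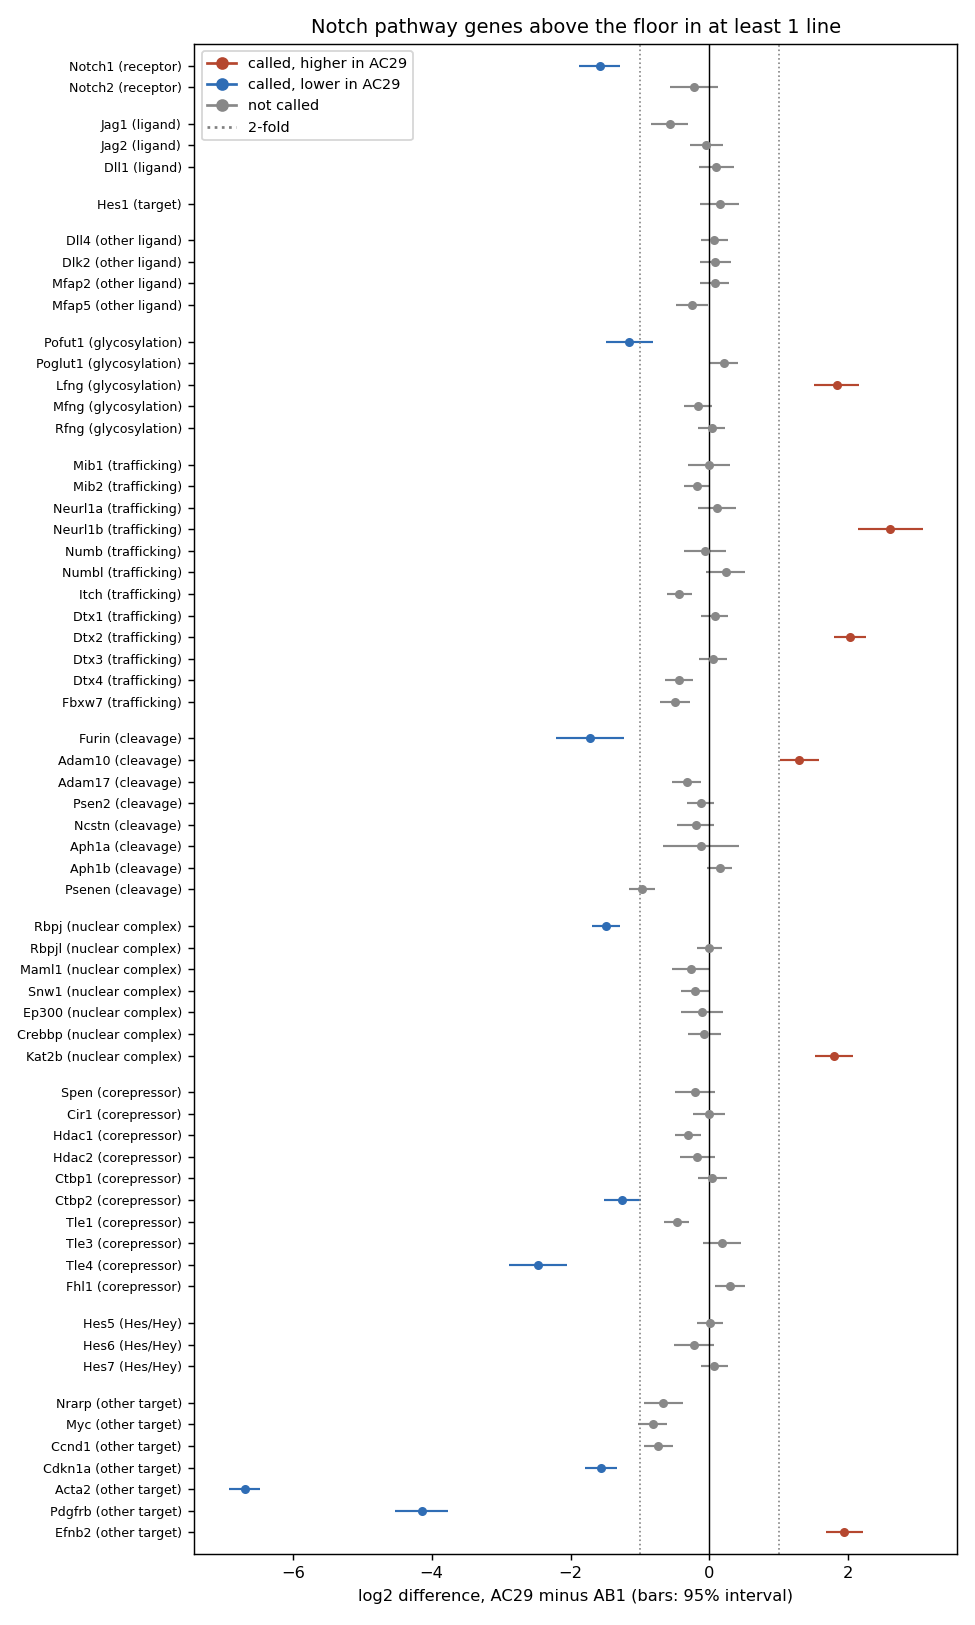
Log2 differences, AC29 minus AB1, with 95% intervals, for the 62 members and wider pathway genes above the floor in at least 1 line, grouped by role; dotted lines mark 2-fold. Called genes lie on both sides, with Neurl1b, Dtx2, Efnb2, Lfng, Kat2b and Adam10 on the AC29 side and Notch1, Rbpj, Furin, Tle4, Ctbp2, Pofut1, Cdkn1a, Pdgfrb and Acta2 on the AB1 side.

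In the list of 5 glycosylation genes, 1 was called higher and 1 lower in AC29, against 5.12% and 5.82% of all genes. Lfng, lunatic fringe, which extends the fucose on Notch with a second sugar, read 8.65, 8.66 and 8.93 in AC29 and 6.70, 6.84 and 7.21 in AB1. All AC29 arrays lay above all AB1 arrays, and Lfng was 3.56-fold higher (difference 1.83, standard error 0.14, adjusted p = 6.98e-06), with its second probe set also past the rule at 1.15. No AB1 array exceeded the stricter level of 7.23, against which the Lfng fold is a bound of at least 2.86. Pofut1, which adds that first fucose, read 8.34, 7.90 and 8.47 in AC29 and 9.31, 9.57 and 9.32 in AB1, a difference of -1.16. The Pofut1 call was lost without AC29 replicate 14 (-0.99) and on the mean of its probe sets (-0.53); its other 2 probe sets differed by -0.09 and -0.33. Poglut1, which adds glucose to Notch, and the fringe Rfng were not called, at 0.21 and 0.03.

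In the trafficking list, 2 of 12 genes were called, both higher in AC29, against 5.12% of all genes. Neurl1b, a ubiquitin ligase that promotes ligand uptake, read 8.84, 8.11 and 8.78 in AC29 and 6.30, 5.84 and 5.78 in AB1, where 1 of 3 arrays exceeded the floor. The fitted difference was 2.61 (standard error 0.21, adjusted p = 8.05e-06), which is 6.09-fold higher in AC29. Its AB1 mean of 5.97 lies under the floor, and against the stricter level of 7.23 the fold is a bound of at least 2.55. Dtx2, a Deltex ubiquitin ligase that acts on Notch, read 10.24, 10.09 and 10.11 in AC29 and 8.09, 8.30 and 7.98 in AB1, and was 4.08-fold higher, with a second probe set at 2.14. The brightest Dtx2 probe set carries a suffix for possible cross-matches, and the second carries one that marks possible matches to more than 1 transcript. With such probe sets removed, none was left to read Dtx2. Itch, a ligase that degrades Notch, differed by -0.43 and Mib1, the main ligase for Notch ligands, by -0.0043; neither was called.

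Of 8 measured genes of receptor cleavage, 1 was called higher and 1 lower in AC29, against 5.12% and 5.82% of all genes. Adam10, the protease that makes the ligand-dependent cut, read 11.87, 11.39 and 11.60 in AC29 and 10.27, 10.41 and 10.30 in AB1, 2.45-fold higher in AC29 (difference 1.29, adjusted p = 3.00e-05). Of its 3 other probe sets, those at 1.49 and 1.12 passed as well, and the third was under the floor. Furin, which cuts the receptor during its maturation, was 3.30-fold lower in AC29, with 7.36, 6.54 and 7.41 against 8.71, 9.06 and 8.71 in AB1. The lowest Furin value was that of AC29 replicate 14, without which the difference was -1.44 and still called. The gamma-secretase subunit Psenen differed by -0.97, just under the 2-fold minimum, with 10.36 ± 0.05 in AC29 and 11.34 ± 0.05 in AB1 (SD, n = 3 each). Adam17, a related protease, differed by -0.32 and was not called.

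In the nuclear complex, Rbpj, the DNA binding partner of the cleaved receptor, was lower in AC29, and the acetyltransferase Kat2b was higher. Rbpj read 9.68, 9.77 and 9.84 in AC29 and 11.28, 11.34 and 11.17 in AB1, with a wide gap between the lines. It was 2.82-fold lower in AC29 (difference -1.50, standard error 0.09, adjusted p = 1.17e-06), and its other 2 probe sets gave -1.68 and -1.49. The RefSeq table lists Rbpj pseudogenes, and whether they add to these probe sets was not tested. Kat2b was 3.47-fold higher in AC29, at 10.88 ± 0.18 against 9.08 ± 0.16 in AB1 (SD, n = 3 each), with another probe set at 1.67. Maml1, a Mastermind coactivator, differed by -0.27 (adjusted p = 0.102), the cofactor Snw1 by -0.21 and the acetyltransferase Crebbp by -0.07, so that 2 of 8 measured genes were called, against 10.9% of all genes.

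Among 11 measured corepressors, 2 were called, both lower in AC29, against 5.82% of all genes. Ctbp2, which links repressors to chromatin enzymes, was 2.39-fold lower, at 9.39 ± 0.22 in AC29 against 10.65 ± 0.09 in AB1 (SD, n = 3 each), with a second probe set at -1.40. Tle4, a Groucho family protein that Hes factors recruit, was under the floor in AC29 (4.33, 3.68 and 4.32) and above it in AB1 (6.31, 6.73 and 6.70), at least 1.42-fold lower. All its values lie under the stricter level of 7.23, where no fold can be given. The deacetylase Hdac2 was not called, at -0.17. Fhl1, a LIM domain protein, was not called either, but its difference of 0.30, with 11.24 ± 0.07 in AC29 against 10.95 ± 0.13 in AB1 (SD, n = 3 each), had an adjusted p of 0.0330 in limma and no overlap between the lines. It was the only corepressor with an adjusted p under 0.05 and a higher level in AC29, and the adjusted p was 0.0285 to 0.127 with 1 array left out. Another Groucho gene, Tle1, differed by -0.47 by its brightest probe set, but by -1.55 and past the rule by another; it is named because that probe set passed.

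**Figure D4:**
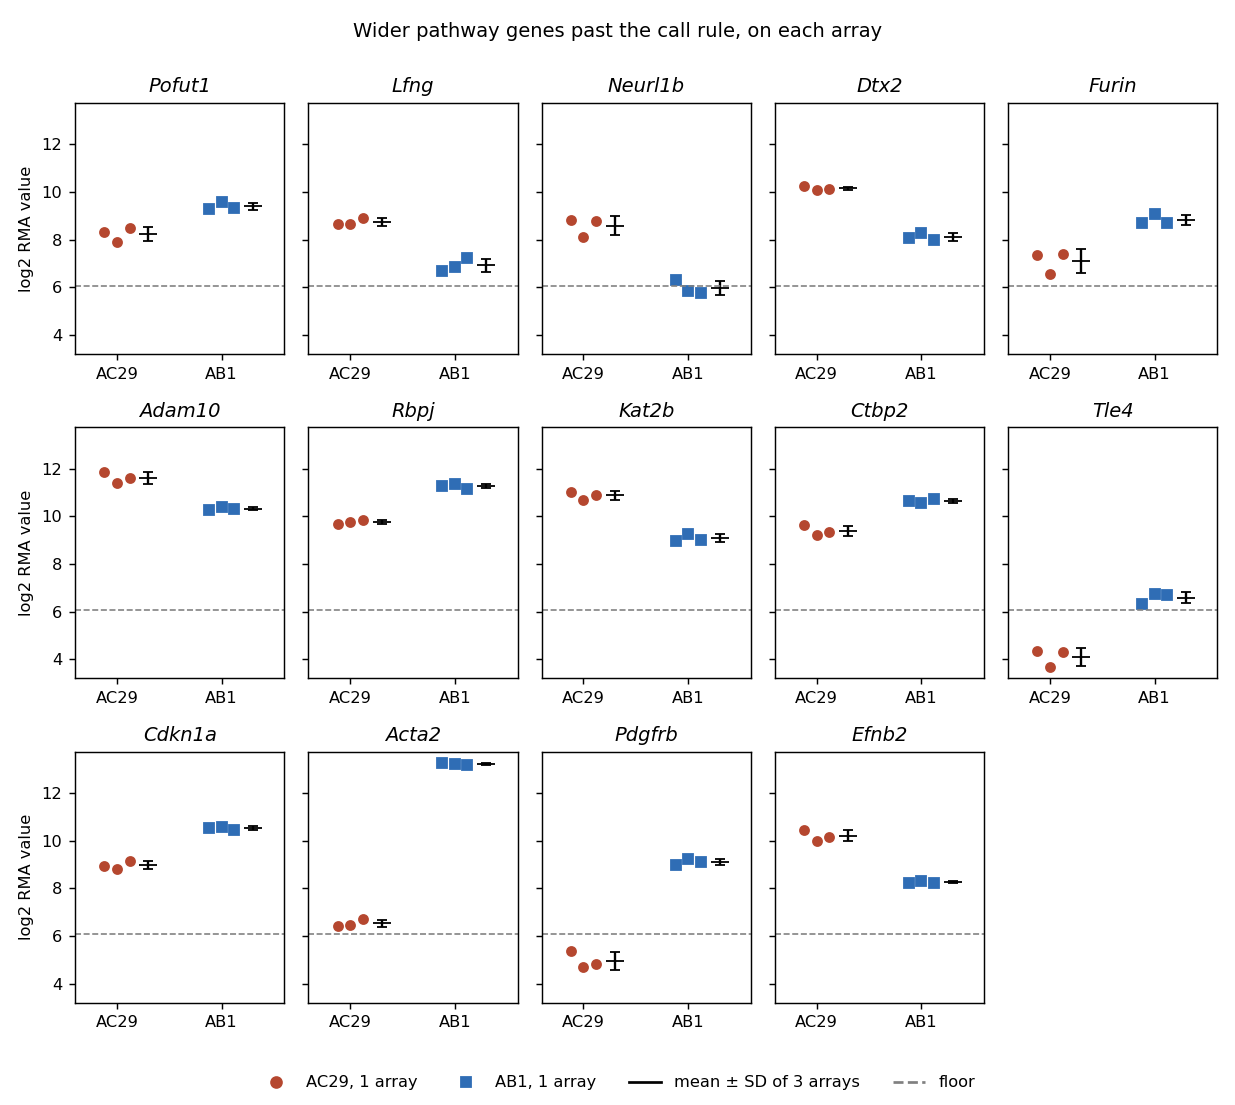
Log2 RMA values of the 14 called wider pathway genes on each array, AC29 (circles) left of AB1 (squares), with the mean ± SD of 3 arrays and the floor of 6.07 dashed. The lines do not overlap in any of them, against 50.1% of all genes, but the call rule itself favours genes without overlap. Tle4 and Pdgfrb lie under the floor in AC29, and Neurl1b lies near it in AB1.

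None of 7 other ligands and none of 6 measured other Hes and Hey genes was called in limma in either direction. At an unadjusted p under 0.05 the counts were 2 of 7 and 2 of 6, against 45.2% of all genes. Mfap2 and Mfap5, microfibril proteins that bind Jagged ligands, were the brightest of the ligand list and differed by 0.07 and -0.25. Hes5, whose window above holds 2 core matches, read 6.18, 6.22 and 6.09 in AC29 and 6.10, 6.17 and 6.21 in AB1, all just above the floor and overlapping, with a difference of 0.0038. Heyl, a Hey gene that mural cells express, was under the floor in both lines at 5.43 and 5.75. Hes6, an inhibitor of Hes1, was the brightest of its list and differed by -0.22.

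Of 8 genes that have been described as Notch targets in other cells, 4 were called, 1 higher and 3 lower in AC29, against 5.12% and 5.82% of all genes. Efnb2, the arterial ephrin, was 3.84-fold higher in AC29 (10.20 ± 0.23 against 8.26 ± 0.05 in AB1, SD, n = 3 each), with another 2 of its 3 further probe sets past the rule. Cdkn1a was 2.96-fold lower, Pdgfrb, a receptor of mural cells, at least 8.21-fold lower and Acta2, smooth muscle actin, 104-fold lower in AC29. The Acta2 probe set carries a suffix for possible cross-matches, and the other 2 were under the floor, so that without it the difference was -0.18. The Pdgfrb probe set carries a different suffix, one that marks possible matches to more than 1 transcript. The other Pdgfrb probe set was also called, by -1.63 and at least 2.71-fold. Against the stricter level of 7.23 the bounds were at least 3.69-fold for Pdgfrb and 63.7-fold for Acta2. Nrarp, a feedback inhibitor that is a direct Notch target, read 7.13, 6.73 and 7.13 in AC29 and 7.59, 7.61 and 7.78 in AB1. These Nrarp arrays did not overlap, but the difference of -0.66 (adjusted p = 0.00205) missed the 2-fold minimum, while its second probe set passed at -1.29. Ccnd1 (cyclin D1) at -0.73 and Myc at -0.82 were not called, although another Ccnd1 probe set passed at -1.22. Each of these genes has regulators outside Notch.

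Markers of the labelled cell type and of cell types in which Notch genes are well known were read on the same arrays. Of 8 mesothelial markers, 8 were above the floor in AC29 and 3 in AB1 (Msln, Krt18 and Krt19). Krt19 exceeded it on 2 AB1 arrays only, at 6.44, 6.41 and 5.61. The AB1 label is the submitters' own, and few of these markers were above the floor there. Of the 8 markers, 7 were called, all higher in AC29, against 5.12% of all genes. Their summed linear level was 15.10 to 15.27 in AC29 and 12.52 to 12.73 in AB1 as log2. Of 7 mural and smooth muscle markers, 3 were called, Cnn1 higher in AC29 and Acta2 and Pdgfrb lower, against 10.9% of all genes. Their summed level was 9.13 to 9.26 in AC29 against 13.32 to 13.37 in AB1, a sum that the Acta2 probe set dominates in AB1. Without Acta2 the other 6 summed to 8.88 to 8.995 in AC29 and 9.74 to 9.87 in AB1. Pdgfrb dominates this sum in AB1, at 9.11 against 4.96 in AC29. Cnn1 went the other way, at 7.80 in AC29 and 6.19 in AB1, and the remaining 4 were not called. Acta2, Pdgfrb and Myh11 also stand in the list of described targets, so the Acta2 and Pdgfrb calls appear in both counts. Rgs5 and Myh11 were under the floor in both lines. Their part in the Notch1 and Rbpj differences was not tested. Of 8 endothelial markers, 6 were under the floor in both lines, Pecam1, Cdh5, Tek, Tie1, Emcn and Vwf, and Kdr and Egfl7 were not called. Of 7 macrophage markers, Ptprc, Adgre1 and Itgam were under 4 in both lines, and Cd14 was called, lower in AC29 (7.26 against 9.02 in AB1). The other macrophage markers were not called: Csf1r was above the floor in both lines (6.66 in AC29, 6.56 in AB1), Cd68 in AB1 only (6.03 in AC29, 6.68 in AB1, adjusted p = 0.000150) and Lyz2 in AC29 only (6.31 in AC29, 5.83 in AB1, adjusted p = 0.0284). The summed macrophage level was 8.70 to 8.84 in AC29 and 9.64 to 9.72 in AB1, a sum that Cd14 dominates in AB1.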

How the data were processed

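Biotinylated cRNA from 5 ug of total RNA of each flask was hybridised to 1 array, per the labels' protocols. The authors deposited 1 log2 value per probe set and array, 45101 probe sets on 6 arrays. GCOS, RMA and Partek 6.4 are named in the submitters' processing notes, with no role or order; the log2 scale was taken from the value range. RMA compresses dim probe sets, so low differences can be understated.

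From these, 64 control probe sets were left out, and 34945 with a single symbol in the platform annotation gave 18193 genes, each by its brightest probe set. All 10 members matched the RefSeq gene table by Entrez identifier. limma 3.58.1 in R 4.3.3 (lmFit, eBayes, 2-sided, line as only term) was fitted over all probe sets outside the controls, with 4 residual and 8.92 moderated degrees of freedom, with Benjamini-Hochberg adjustment across the 18193 genes; probe sets on their own were adjusted over all probe sets. Differences are AC29 minus AB1. Folds are lower bounds, set against the floor, for a line with no array above it. Folds of wider pathway genes against the 99th percentile, and the mural sum without Acta2, were alternatives chosen after seeing the data. On simulated data with 18193 genes, 96% of 50 genes changed by 1.5 on the log2 scale and 98% of 50 changed by 2 were called. Of 17993 unchanged genes, 0 were called. The minimum log2 difference of 1 is far above the median standard error of 0.0999 and by itself keeps unchanged genes out. The rate of false calls was therefore not tested. Recovery of changes between 1 and 1.5 was not tested either.

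The members, lists and tests were chosen with earlier results of these data known. Named were all members and their probe sets, every called gene and the 2 brightest uncalled genes of each list, Rbpj, Maml1, Nrarp, Heyl, Hes5, and the 3 profiles nearest to Notch1. Scan dates were not analysed here.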

Additional observations from a re-analysis of the deposited data

How the results depend on the processing

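Notch1 was the only member called under quantile normalization, median centring, the filter on dim genes and the mean of probe sets. That also held when probe sets with suffixes for cross-matches or more than 1 transcript were removed. It held under trended and robust moderation, array weights and limma's test against 2-fold. With each replicate left out it held too, at differences of -1.71 to -1.47 without 1 array. With no minimum difference 3 members, 27 wider pathway genes and 7105 genes in all passed, in place of 1, 14 and 1991; against 2-fold 1237 genes in all passed. By its second probe set Notch1 was not called (-0.49). Small differences without a call changed sign: Notch2 by its other probe set (0.0826), Notch4 by its others (0.0871 and 0.00053), Mfap5 (0.0719) and Hdac2 (0.0789) on the mean of probe sets, Mib1 under quantile normalization (0.0019), the mean of probe sets (0.22) and array weights (0.0761), and Hes5 under quantile normalization (-0.0217) and centring (-0.0156). With 1 array left out the ranges across 0 were -0.273 to 0.0875 for Notch4, -0.117 to 0.0279 for Jag2, -0.0265 to 0.0417 for Hes5, -0.0242 to 0.0779 for Rfng, -0.125 to 0.0724 for Mib1 and -0.142 to 0.0145 for Crebbp. Psenen was called without AB1 replicate 6 (-1.002). On the mean of probe sets Adam10 (0.97) and Pofut1 were not called, and against 2-fold Pofut1, Furin, Adam10 and Ctbp2 were not. The cause was not tested. No paired analysis was made, because the flasks are of separate lines and the labels give nothing that pairs them. Members under the floor cannot be resolved by these arrays.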
